A study of Mus musculus with 6 samples.

Results

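The apolipoprotein genes described here are 10 members of the family that coats the lipoproteins of plasma, namely Apoa1, Apoa2, Apoa4, Apoa5, Apob, Apoc1, Apoc3, Apoe, Apom and Apoh. They were chosen by name, and each row that carries one of these names was taken, which gave 14 rows of the 68997 in the table. The livers came from wild-type C57BL/6 mice of 10 weeks kept on NCD (normal chow). Of these, 3 received Ad-MAFG, an adenovirus that carries Mafg cDNA behind the cytomegalovirus promoter, and 3 received the control adenovirus Ad-CMV. Every mouse thus carried an adenovirus, no uninfected liver entered the comparison, and the promoter of the vector is not restricted to hepatocytes. The question was how added MAFG, a small MAF transcription factor, shifts the liver transcriptome.

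The table holds 1 FPKM value (fragment count scaled by transcript length and by mapped fragments) per group and transcript, and 0 columns with values of single mice. No SD, test or interval can therefore be given for any value below, and the depth of the libraries is unknown. Differences are described as folds, and their size relative to the spread between mice is unknown. No row of the table is named Mafg, so Mafg was not analysed here and the group labels could not be checked by it. Each gene stands by its row with the highest mean FPKM, and a gene entered the comparison when it reached 1 FPKM in the higher group, which 7555 of 21255 protein-coding genes did. Of the 10 apolipoprotein genes 9 did so, and Apoe did not. Log2 ratios are of Ad-MAFG over Ad-CMV after addition of 0.1 FPKM to each value, and a negative ratio means lower in Ad-MAFG livers.

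Lipoproteins carry triglyceride and cholesterol through plasma, and the liver secretes most of their apolipoproteins. APOB forms the scaffold of very-low-density lipoprotein (VLDL) and low-density lipoprotein, APOA1 and APOA2 are the main proteins of high-density lipoprotein (HDL), and the small APOC proteins, APOA5 and APOE steer lipolysis and uptake on the particle surface. Several of the genes lie side by side. Apoa1, Apoc3, Apoa4 and Apoa5 form a cluster on mouse chromosome 9, and Apoe, Apoc1, Apoc4 and Apoc2 form another on chromosome 7. MAFG has no activation domain of its own. As a homodimer it is known as a repressor, and with partners such as NRF2 it can activate genes.

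In the deposited values the HDL genes Apoa2 and Apoa1 were the members that differed most, with Apoa2 3.26-fold and Apoa1 2.41-fold lower in Ad-MAFG livers. Apoa4 was the one member with a higher value, 1.81-fold in Ad-MAFG livers. Apob, the backbone of VLDL, was 1.24-fold lower. The other 5 genes were between 1.35-fold and 1.68-fold lower. Just outside the chosen genes, Apoc2, which encodes the cofactor of lipoprotein lipase, was 3.90-fold higher. Each of these values is of 1 listed transcript and need not hold for the whole gene.

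Sequences upstream of 4 genes of the APOA group are shown because these genes include both members past 2-fold and the member that went the other way. They run 5′ to 3′ on the plus strand of GRCm38.p6 (RefSeq windows) and stop before the Ensembl gene start. The stretches are chr1:171224804-171225053 for Apoa2, chr9:46228380-46228579 for Apoa1, chr9:46240594-46240695 for Apoa4 and chr9:46268383-46268632 for Apoa5. Capitals mark the half-site GGGTCA and its variant AGTTCA on either strand, letters of the kind bound by nuclear receptors.
Apoa2: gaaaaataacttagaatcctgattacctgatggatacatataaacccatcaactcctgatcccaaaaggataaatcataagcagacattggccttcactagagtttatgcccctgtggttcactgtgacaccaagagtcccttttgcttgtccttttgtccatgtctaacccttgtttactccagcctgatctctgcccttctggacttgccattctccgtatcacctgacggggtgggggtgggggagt
Apoa1: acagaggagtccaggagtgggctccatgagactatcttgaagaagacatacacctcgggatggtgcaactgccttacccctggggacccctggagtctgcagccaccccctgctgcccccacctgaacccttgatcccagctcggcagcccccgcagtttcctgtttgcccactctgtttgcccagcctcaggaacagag
Apoa4: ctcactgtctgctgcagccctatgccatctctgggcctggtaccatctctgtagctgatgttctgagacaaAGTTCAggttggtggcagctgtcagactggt
Apoa5: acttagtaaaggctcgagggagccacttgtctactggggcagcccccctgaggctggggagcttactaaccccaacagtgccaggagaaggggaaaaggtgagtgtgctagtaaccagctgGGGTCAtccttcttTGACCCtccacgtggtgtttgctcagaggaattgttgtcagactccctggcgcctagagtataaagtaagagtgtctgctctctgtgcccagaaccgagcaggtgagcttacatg
The stretches differ in length, from 102 to 250 bases, so the capitals cannot be compared between genes. AGTTCA also occurs in the window of Apoa1, within the 50 bases left off its stretch.

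Apoa2, on chromosome 1 from 171225054 to 171226379 (plus strand, GRCm38), encodes the second most abundant protein of HDL. Its row, a transcript of 518 bases on the strand of the gene, had 661 FPKM in Ad-MAFG livers and 2159 FPKM in Ad-CMV livers, a log2 ratio of −1.71. Among the 7555 genes it stood at rank 12 by level in Ad-MAFG livers and at rank 6 in Ad-CMV livers. Only 1.38% of the genes had a lower ratio. The row shares its assembled coordinates with 19 other listed rows, among them Fcer1g, the gamma chain of an Fc receptor, at 25.3 FPKM in Ad-MAFG livers and 22.4 FPKM in Ad-CMV livers (log2 ratio 0.18).

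Apoa1, on chromosome 9 from 46228580 to 46230466 (plus strand), encodes the structural protein of HDL, which also activates the cholesterol-esterifying enzyme LCAT. It had 496 FPKM in Ad-MAFG livers and 1195 FPKM in Ad-CMV livers, a log2 ratio of −1.27. Its rank by level was 16 in Ad-MAFG livers and 13 in Ad-CMV livers, and 2.75% of the genes had a lower ratio. Both HDL genes were thus lower, Apoa2 by the larger fold. In FPKM, which is per length, Apoa2 was at 1.33 times Apoa1 in Ad-MAFG livers and at 1.81 times Apoa1 in Ad-CMV livers. Each row is 1 listed transcript, in loci with room for 5 transcript numbers (Apoa2) and 2 (Apoa1). This is therefore not a ratio of whole genes.

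Apom, on chromosome 17 from 35128997 to 35132050 (minus strand), encodes the HDL protein that carries sphingosine-1-phosphate. It has 1 row on each strand. The row on the opposite strand had 17.4 FPKM in Ad-MAFG livers and 24.6 FPKM in Ad-CMV livers (log2 ratio −0.50). The row on the strand of the gene had 6.11 FPKM in Ad-MAFG livers and 7.24 FPKM in Ad-CMV livers (log2 ratio −0.24). Both rows of Apom were lower in Ad-MAFG livers, and neither reached 1.5-fold.

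**Figure D1:**
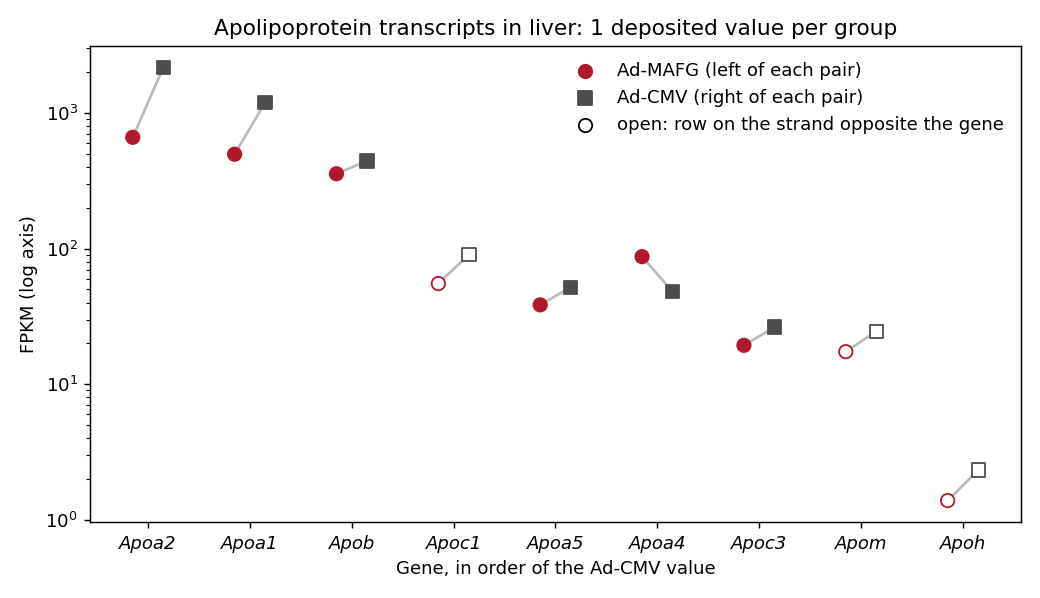
FPKM of the 9 measured apolipoprotein genes on a log axis, with Ad-MAFG (circles) left of Ad-CMV (squares), each point being the single deposited value of the group and open symbols marking rows on the strand opposite to the gene. Apoa2 (661 against 2159 FPKM) and Apoa1 (496 against 1195 FPKM) have the steepest falling lines from right to left, and Apoa4 (87.2 against 48.1 FPKM) is the gene with the higher Ad-MAFG value.

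Apob, on chromosome 12 from 7977648 to 8016835 (plus strand), encodes the single large protein that each VLDL particle is built on. Its row on the strand of the gene, for a transcript of 13934 bases, had 356 FPKM in Ad-MAFG livers and 443 FPKM in Ad-CMV livers, a log2 ratio of −0.32. The row on the opposite strand gave 336 FPKM in Ad-MAFG livers and 431 FPKM in Ad-CMV livers (log2 ratio −0.36). The rows on both strands of Apob were thus close in level and in ratio, although the libraries were strand-specific. Since Apob was lower by less than Apoa1, the ratio of Apob to Apoa1 was 0.717 in Ad-MAFG livers, against 0.371 in Ad-CMV livers. This too is a ratio of single listed transcripts, in loci with room for 6 transcript numbers (Apob) and 2 (Apoa1).

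Apoc3, on chromosome 9 from 46232933 to 46235636 (minus strand), encodes an inhibitor of lipoprotein lipase and of remnant uptake. It had 19.4 FPKM in Ad-MAFG livers and 26.3 FPKM in Ad-CMV livers, a log2 ratio of −0.44 and a 1.36-fold lower value. Apoa5, on the same chromosome from 46268633 to 46271919 (plus strand), encodes a low-abundance protein that promotes lipolysis. It had 38.5 FPKM in Ad-MAFG livers and 51.9 FPKM in Ad-CMV livers, a log2 ratio of −0.43. In these rows the inhibitor and the promoter of lipolysis were thus lower by nearly the same fold, 1.36 and 1.35. Each row is 1 listed transcript, in loci with room for 5 transcript numbers (Apoc3) and 2 (Apoa5).

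Apoc1, on chromosome 7 from 19689481 to 19692660 (minus strand), encodes a small protein that slows the uptake of lipoproteins. Its higher row lies on the opposite strand and had 55.3 FPKM in Ad-MAFG livers and 90.3 FPKM in Ad-CMV livers (log2 ratio −0.71). Its row on the strand of the gene had 7.18 FPKM in Ad-MAFG livers and 7.59 FPKM in Ad-CMV livers (log2 ratio −0.08). The size of the difference in Apoc1 therefore depended on the row, and it was near 0 in the lower row, on the strand of the gene. Of all rows that stand for a protein-coding gene only 29.0% lie on the strand of the gene. Which row better reflects Apoc1 was not tested.

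Apoe and Apoh gave the least information. Apoe, on chromosome 7 from 19696109 to 19699188 (minus strand), encodes the ligand by which remnants reach receptors of the low-density lipoprotein receptor family. Its one row is Apoe-004, a transcript of 817 bases in a locus with room for 14 transcript numbers, and it was listed at 1.2e-31 FPKM in Ad-MAFG livers and 9.6e-48 FPKM in Ad-CMV livers. These are numerical zeros of the estimate for 1 listed transcript, so no level or fold is given for Apoe. Apoh, on chromosome 11 from 108343354 to 108414396 (plus strand), encodes beta-2-glycoprotein, a phospholipid-binding plasma protein. It had 1.39 FPKM in Ad-MAFG livers and 2.33 FPKM in Ad-CMV livers in its row on the opposite strand (log2 ratio −0.71), and its row on the strand of the gene was at a numerical zero in both groups.

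Apoa4, on chromosome 9 from 46240696 to 46243459 (plus strand), encodes a protein of chylomicrons and HDL that mouse liver makes beside the intestine. It had 87.2 FPKM in Ad-MAFG livers and 48.1 FPKM in Ad-CMV livers, a log2 ratio of 0.86, and 6.04% of the genes had a higher ratio. Relative to Apoa1 it was at 0.176 in Ad-MAFG livers and 0.0403 in Ad-CMV livers. Relative to Apoa5 it was at 2.27 in Ad-MAFG livers and 0.927 in Ad-CMV livers, so the order of these cluster neighbours was the reverse in the 2 groups. These are ratios of single listed transcripts, not of whole genes. Gm10680, a gene annotated antisense to Apoa4 with 839 of its 909 bases inside the 2764 bases of Apoa4, had 570 FPKM in Ad-MAFG livers and 325 FPKM in Ad-CMV livers (log2 ratio 0.81). How far the values of Apoa4 and Gm10680 share reads was not tested. Of the markers of intestinal epithelium, Vil1, Cdx1, Cdx2 and Sis were listed at 0 in both groups, and Fabp2 was the 1 of 7 past the minimum, at 54.0 FPKM in Ad-MAFG livers and 44.9 FPKM in Ad-CMV livers. Each of these zeros is of 1 listed transcript, so it does not show that the gene was silent.

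Read against all protein-coding genes, 2 of the 9 measured apolipoprotein genes were at least 2-fold lower in Ad-MAFG livers, where 4.41% of 7555 genes were. None was at least 2-fold higher, where 4.79% of genes were. At 1.5-fold, 4 were lower (10.9% of genes) and 1 was higher (10.2% of genes). Of the 4, Apoc1 and Apoh were counted by rows on the strand opposite to the gene. On the strand of the gene Apoc1 had a log2 ratio of −0.08 and Apoh was at a numerical zero. The ratio was below 0 in 8 of 9, where 55.3% of genes had a ratio below 0. The median log2 ratio of the 9 was −0.50, beside −0.05 over all genes.

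Level matters to this reading, because abundant genes as a whole leaned lower in Ad-MAFG livers. Of 115 genes with a mean of at least 100 FPKM, 28 (24.3%) were at least 2-fold lower and 2 at least 2-fold higher, with a median log2 ratio of −0.33. Among them Apoa2 had the 11th lowest ratio, Apoa1 the 22nd and Apob the 60th. Of 1217 genes with at least 10 FPKM in the higher group, 23.6% were at least 1.5-fold lower, and the median was −0.22. A difference of 2-fold was thus common among abundant genes, and Apob lay in the middle of them. Whether the lean of abundant genes contributes to the apolipoprotein ratios was not tested.

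**Figure D2:**
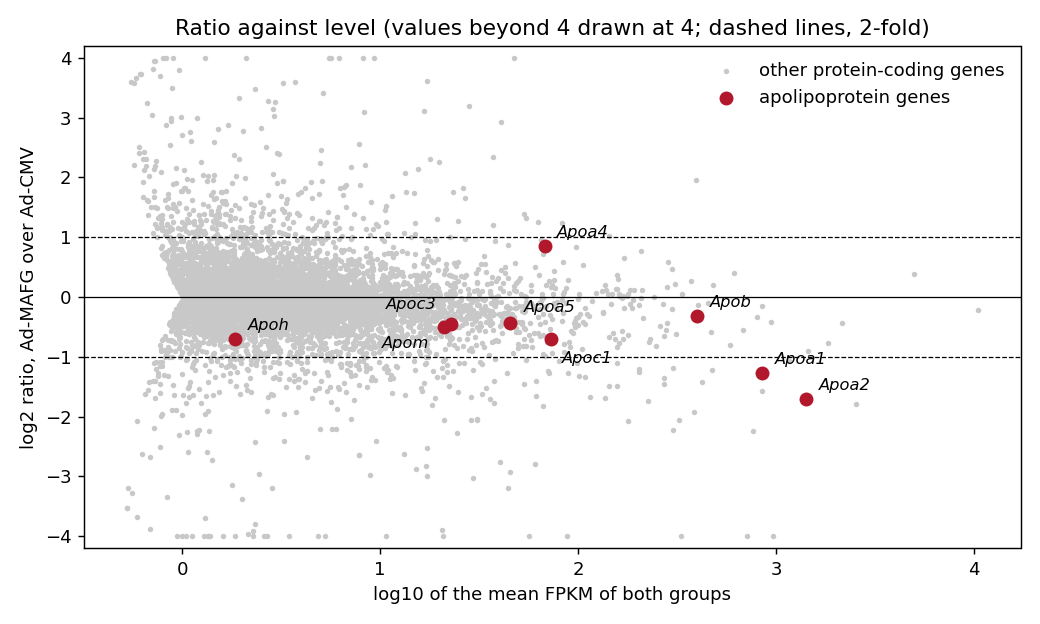
Log2 ratio of Ad-MAFG over Ad-CMV against the log10 of the mean FPKM for 7555 protein-coding genes (grey) and the 9 measured apolipoprotein genes (red), with dashed lines at 2-fold and ratios beyond 4 drawn at 4. Apoa2 and Apoa1 lie below the lower dashed line at the right, where 28 of 115 genes do, and Apoa4 lies just under the upper one.

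The cluster on chromosome 9 did not move as a block. Within 12.1 kb, Apoa1 was 2.41-fold lower, Apoc3 (7.1 kb from the start of Apoa1) 1.36-fold lower and Apoa4 (12.1 kb) 1.81-fold higher, and Apoa5 (40.1 kb) was 1.35-fold lower. Of the flanking genes, Sik3, a salt-inducible kinase, had 99.6 FPKM in Ad-MAFG livers and 122 FPKM in Ad-CMV livers (log2 ratio −0.29). Zpr1, a zinc finger protein gene next to Apoa5, had 86.4 FPKM in Ad-MAFG livers and 110 FPKM in Ad-CMV livers (log2 ratio −0.34). Bud13, a splicing factor gene, had 2.14 FPKM in Ad-MAFG livers and 1.31 FPKM in Ad-CMV livers (log2 ratio 0.67). The rows of Zpr1 and Bud13 lie on the opposite strand.

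The cluster on chromosome 7 was also split. Apoc1 was lower, while Apoc2, whose start lies at −14.7 kb from that of Apoc1, had 625 FPKM in Ad-MAFG livers and 160 FPKM in Ad-CMV livers (log2 ratio 1.96). Apoc4, at −11.2 kb from Apoc1 and next to Apoc2, had 21.0 FPKM in Ad-MAFG livers and 6.13 FPKM in Ad-CMV livers (log2 ratio 1.76), in a row on the opposite strand. Relative to Apoc3, the inhibitor, the lipase cofactor Apoc2 was at 32.3 in Ad-MAFG livers and 6.09 in Ad-CMV livers. Each row is 1 listed transcript, in loci with room for 7 transcript numbers (Apoc2) and 5 (Apoc3), so this is not a ratio of whole genes. Further along, Bcam, an adhesion molecule, had 2.32 FPKM in Ad-MAFG livers and 0.749 FPKM in Ad-CMV livers (log2 ratio 1.51). Tomm40, a subunit of the mitochondrial import pore, had 24.4 FPKM in Ad-MAFG livers and 30.4 FPKM in Ad-CMV livers (log2 ratio −0.32). Relb, Clptm1 and Nectin2 had log2 ratios of −0.12, 0.06 and 0.16. The rows of Bcam, Tomm40, Relb and Clptm1 lie on the opposite strand.

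**Figure D3:**
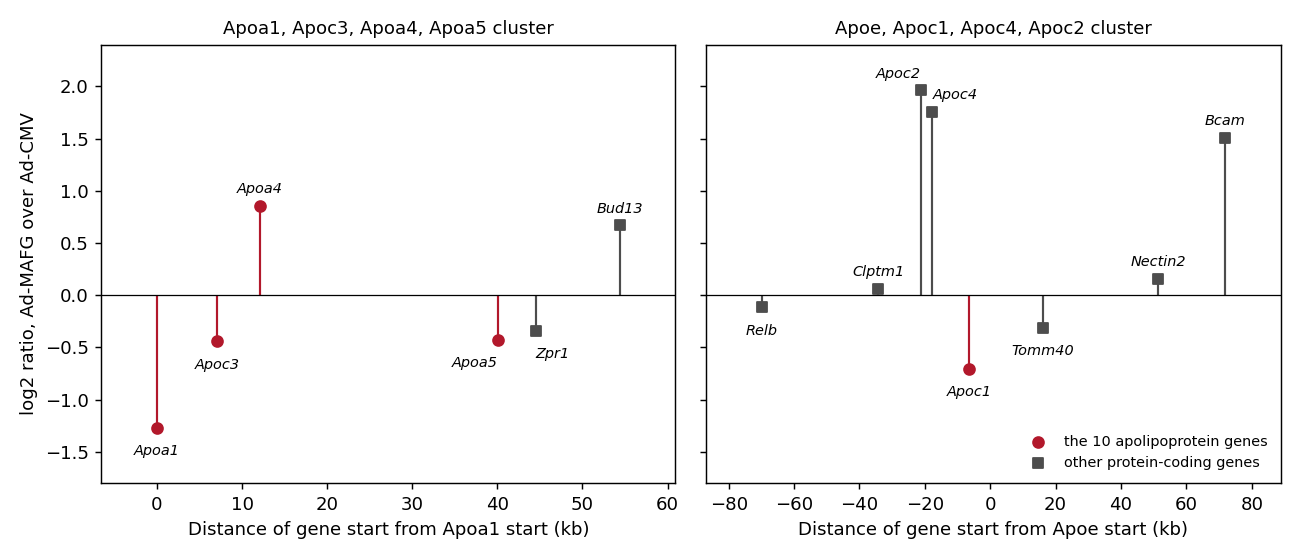
Log2 ratio of Ad-MAFG over Ad-CMV (y axis) against the distance in kb of each gene start from that of Apoa1 (left) or Apoe (right), for protein-coding genes past 1 FPKM with a start within 100 kb, with chosen apolipoprotein genes as red circles and other genes as grey squares. Apoa4 stands above 0 between Apoc3 and Apoa5, and Apoc2 and Apoc4 stand at 1.96 and 1.76 beside Apoc1 at −0.71.

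Around the other genes the largest difference was in Nr1i3, which encodes the nuclear receptor CAR and starts at −11.1 kb from Apoa2. It had 7.42 FPKM in Ad-MAFG livers and 16.7 FPKM in Ad-CMV livers (log2 ratio −1.16). Pcp4l1 (log2 ratio −0.70), Usp21 (−0.11) and Ufc1 (−0.12) also lie near Apoa2, with rows on the opposite strand. Near Apom, Tnf, the inflammatory cytokine, had 0.954 FPKM in Ad-MAFG livers and 2.21 FPKM in Ad-CMV livers (log2 ratio −1.13), and Lst1, a leukocyte gene, had 20.3 FPKM in Ad-MAFG livers and 14.1 FPKM in Ad-CMV livers (log2 ratio 0.52). The other 8 genes near Apom, namely Clic1, Ddah2, Abhd16a, D17H6S53E, Bag6, Prrc2a, Aif1 and Ltb, had log2 ratios from −0.23 to 0.36, and Prkca at Apoh had 0.26. Of the genes near Apom and Apoh, only Lst1 and D17H6S53E have their row on the strand of the gene. In all, 27 other protein-coding genes within 100 kb of a member passed the minimum, 2 of them at least 2-fold lower and 3 at least 2-fold higher, with a median of 0.06. Over all genes 4.41% were at least 2-fold lower and 4.79% at least 2-fold higher. Apoc2 and Apoc4, apolipoprotein genes themselves, are among the 3 higher.

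Of 17 further apolipoprotein genes 12 passed the minimum, with 4 at least 2-fold lower, 2 at least 2-fold higher and a median log2 ratio of −0.70. Those past 2-fold on the higher side were Apoc2 and Apoc4. Saa2, an acute-phase protein of HDL, had 3.54 FPKM in Ad-MAFG livers and 26.6 FPKM in Ad-CMV livers (log2 ratio −2.88). Its paralog Saa1 had 4.15 FPKM in Ad-MAFG livers and 29.9 FPKM in Ad-CMV livers (log2 ratio −2.82). The paralogs are nearly alike in sequence, which makes the values of each uncertain, and both rows lie on the opposite strand.

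Among enzymes and transporters that remodel lipoproteins, 9 of 9 passed the minimum, with 2 at least 2-fold lower, none at least 2-fold higher and a median of −0.33. Pon1, the paraoxonase that rides on HDL, had 55.3 FPKM in Ad-MAFG livers and 175 FPKM in Ad-CMV livers (log2 ratio −1.66). Abcg5, a sterol transporter subunit, had 0.521 FPKM in Ad-MAFG livers and 1.65 FPKM in Ad-CMV livers (log2 ratio −1.49), and its partner Abcg8 had a log2 ratio of 0.02. Lcat, the enzyme that APOA1 activates, had 43.8 FPKM in Ad-MAFG livers and 71.7 FPKM in Ad-CMV livers (log2 ratio −0.71).

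Of the lipases and triglyceride-handling genes 7 of 9 passed, none at least 2-fold lower and 1 at least 2-fold higher, with a median of −0.44. That gene was Lpl, the lipase that APOC2 activates, with 30.0 FPKM in Ad-MAFG livers and 14.9 FPKM in Ad-CMV livers (log2 ratio 1.00).

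No gene passed 2-fold in either direction among the 6 of 12 genes of lipoprotein assembly that were measured (median 0.13). The same held for 9 of 10 receptor genes (median −0.02) and for 12 of 22 transcription factors known for apolipoprotein genes (median −0.30). Mttp, which loads lipid onto APOB, did not reach the minimum in its 1 listed row. Hnf4a, the hepatocyte nuclear receptor, had 90.5 FPKM in Ad-MAFG livers and 121 FPKM in Ad-CMV livers (log2 ratio −0.42, on the opposite strand).

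**Figure D4:**
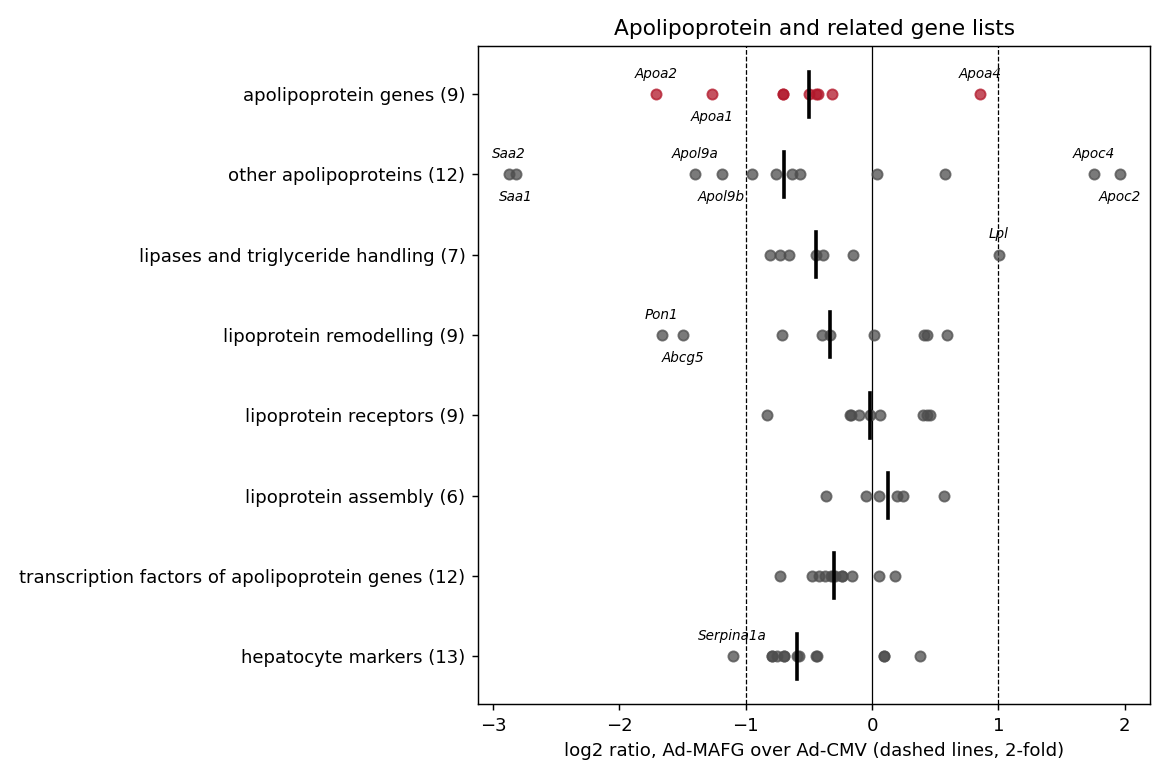
Log2 ratio of Ad-MAFG over Ad-CMV (x axis) for each measured gene of the 9 chosen apolipoprotein genes (red) and of 7 further lists (grey), with the number of genes in brackets, black bars at the medians and names at 2-fold or beyond, plus Apoa4. Apoa2 (−1.71) and Apoa1 (−1.27) lie below the lowest hepatocyte marker, Serpina1a (−1.10), and Apoa4 (0.86) lies above the highest, Alb (0.38).

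In whole liver, fewer cells of a type and less RNA per cell cannot be told apart. All 7555 measured protein-coding genes summed to 87000 FPKM in Ad-MAFG livers and 112000 FPKM in Ad-CMV livers. Sums over marker lists are thus parts of unequal totals. Of 16 hepatocyte markers 13 passed the minimum, with 1 at least 2-fold lower, 7 at least 1.5-fold lower and a median of −0.59, and their summed level was 8870 FPKM in Ad-MAFG livers and 9010 FPKM in Ad-CMV livers. Alb, the albumin gene, had 5603 FPKM in Ad-MAFG livers and 4310 FPKM in Ad-CMV livers (log2 ratio 0.38), and without it the other 12 summed to 3270 FPKM in Ad-MAFG livers and 4690 FPKM in Ad-CMV livers. The hepatocyte markers thus also had mostly lower values, with Serpina1a at 4.45 FPKM in Ad-MAFG livers and 9.67 FPKM in Ad-CMV livers (log2 ratio −1.10) as the lowest ratio. The median of the apolipoprotein genes (−0.50) was close to that of the hepatocyte markers, and Apoa1 and Apoa2 lay below every measured marker.

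Markers of other liver cells differed beside these values. Stellate cell markers summed to 202 FPKM in Ad-MAFG livers and 99.9 FPKM in Ad-CMV livers, with 4 of 10 at least 2-fold higher, namely Col1a1, Col3a1, Col1a2 and Acta2. Cholangiocyte markers (4 of 6 measured) summed to 48.4 FPKM in Ad-MAFG livers and 16.2 FPKM in Ad-CMV livers, with Spp1 and Krt19 at least 2-fold higher. Without Spp1 the other 3 summed to 7.48 FPKM in Ad-MAFG livers and 4.65 FPKM in Ad-CMV livers. Macrophage markers (12 of 13) summed to 226 FPKM in Ad-MAFG livers and 173 FPKM in Ad-CMV livers, with Marco and Timd4 at least 2-fold lower and Cd14 at least 2-fold higher. Endothelial markers (7 of 8) summed to 42.0 FPKM in Ad-MAFG livers and 47.6 FPKM in Ad-CMV livers, with none past 2-fold. The part of these differences in the apolipoprotein values was not tested.

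Upstream sequences were compared by letters only. Of the 10 genes 8 have a RefSeq window, Apoc1 and Apoc3 being those without, and the 250 bases before the RefSeq start were searched on both strands. Neither TGCTGA, the half-site of small MAF proteins, nor TGACNNNGC, the core that small MAF proteins share with NRF2, was found in any of the 8, where 16.1% and 10.2% of 32851 windows of the same length hold them. GGGTCA was found in 3 (Apoa5, Apoe and Apom; 11.6% of windows), AGTTCA in 2 (Apoa1 and Apoa4; 11.8%) and AGGTCA in 1 (Apoh; 14.0%), and GTTAAT, a half-site of HNF1, in 0 (6.43%). In Apoa1 the match begins at base −42 from the RefSeq start, past the Ensembl start, and in Apoa4 it begins at −179. The Apom matches, at −156 and −32, also lie inside the Ensembl gene, since only 1 base of that window precedes the Ensembl start. For Apoh the whole window, from 108395047 to 108395296, lies inside the Ensembl gene. Apoa5 holds GGGTCA at −129 and again, on the other strand, at −115, and Apoc2 holds AGGTCA at −115 and GTTAAT at −89. With so few windows these matches are a description of the letters and say nothing of binding, and no match says only that these letters are not in the window.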

How the data were processed

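Total RNA of 6 livers was depleted of ribosomal RNA and sequenced as paired reads from strand-specific libraries. The authors removed ribosomal reads with Bowtie2 2.2.9, aligned with STAR 2.6.0c to GRCm38 (mm10), and assembled and compared transcripts with the Cufflinks suite 2.2.1, including Cuffdiff (versions from the submitters' processing notes). The deposited values used here are FPKM, the unit of Cuffdiff, with a single value for the mice of each group. Further columns hold the authors' own fold changes, test scores, p-values and q-values and were not used.

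Each locus is listed with 1 of its transcripts, so other transcripts were not analysed here, and a gene can appear by a scarce form (Gapdh had 0.0303 FPKM in Ad-MAFG livers and 0.0116 FPKM in Ad-CMV livers). Overlapping and antisense genes are uncertain. The strand of an assembled transcript was read from the order of locus numbers, which run along the plus and then the minus strand of each chromosome. Of 25006 rows listed at 0 in both groups 99.94% lay on the strand of their gene. Of the 7555 rows that stand for a protein-coding gene 29.0% did, and of the 9 apolipoprotein genes 6 did.

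Groups came from the virus named in the labels, which also give the 3 mice per group used here, although a plot legend of the paper has another count. The apolipoprotein genes and the 12 gene lists were chosen with earlier results of these data known. Named genes were all 10 apolipoprotein genes, up to 4 genes of each list past 2-fold, and genomic neighbours past 1 FPKM, some of which are not reported here. Fcer1g and Gm10680 (which share the position of a member) and Gapdh, Lcat, Abcg8, Hnf4a, Mttp and Alb were named after their values were seen, as were the half-sites of nuclear receptors and HNF1 the shares over genes of at least 10 and 100 FPKM and the marker sums without their most abundant gene. Log2 ratios used a pseudocount of 0.1 FPKM, which understates folds of low genes. Alternatives were other rows of a gene, pseudocounts of 0.01 and 1, no minimum or 10 FPKM, a 1.5-fold threshold and centring on the median. The code was tested on simulated data. Python 3.11.15, pandas 2.3.3, numpy 2.4.6 and matplotlib 3.10.9 were used. Gene positions are those of Ensembl in the deposited table (GRCm38), and upstream sequences are from RefSeq (GRCm38.p6).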

Additional observations from a re-analysis of the deposited data

How the results depend on the processing

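Each measured apolipoprotein gene was recomputed under up to 9 alternatives. Of the 74 values 41 were identical to the main value, since a filter or a choice of row often leaves a gene as it was. The other 33 kept their sign, and 30 of them lay within 0.1 of the main log2 ratio. The exceptions were Apoc1 (−0.08) and Apom (−0.24) on rows of the gene's own strand, and Apoh (−0.48) with a pseudocount of 1 FPKM. Another pseudocount cannot change the sign of a ratio, and centring shifted every ratio by the same small amount. Most of this stability was therefore fixed by the arithmetic. Only other rows or sums of rows brought in other values, and among the members these changed Apob, Apoc1 and Apom alone. With rows of the strand opposite to the gene, 0 of 4 measured members were at least 2-fold lower, because Apoa1 and Apoa2 have no such row, and the median log2 ratio was −0.60, beside 3.75% of all genes at least 2-fold lower. With rows of the gene's own strand the median was −0.37 over 8 members, beside 7.37% of all genes at least 2-fold lower and a median of −0.12 over all genes. At a minimum of 10 FPKM 10.7% of all genes were at least 2-fold lower. At 1.5-fold 4 members were lower and 1 was higher, with Apoc1 and Apoh among the 4 only by their rows on the opposite strand. Centring on the median of all genes (−0.05) changed neither count. No paired analysis was possible because the deposited values are 1 per group, and leaving out a mouse could not be run for the same reason. Depth per library is unknown, so the precision of low values such as those of Apoh cannot be given.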
